A study of Mus musculus with 9 samples.

Results

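An adenocarcinoma cell line from the lung of a Gprc5a-knockout mouse was compared with a tracheal epithelial cell line from a Gprc5a wild-type mouse. The comparison was made by taking the 3 arrays titled as NNK-exposed adenocarcinoma cells and the 3 titled as wild-type normal lung epithelial cells, which are 6 of the 9 arrays of the series, and it covered all 45037 non-control probe sets of the array. The tumour line, MDA-F471, was established from a lung adenocarcinoma of a Gprc5a-knockout female that was killed 16 months after an intraperitoneal injection of NNK, a nitrosamine carcinogen of tobacco. The wild-type line, WT-NLE, is a non-tumorigenic culture from the trachea of a mouse 3 weeks old that carried intact Gprc5a and for which the labels name no carcinogen. The remaining 3 arrays hold NULL-NLE, a non-tumorigenic tracheal line of 3-week-old Gprc5a-knockout mice without stated NNK; they entered the fit of the spread, and their values are set beside some of the results. All 3 lines have the strain label C57/BL6 x sv129. RNA was hybridised to Affymetrix MG-430 2.0 arrays, and all values here are log2 signals.

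Each genotype is represented by cultured lines of unstated clonality, and the labels do not say whether the 3 arrays of a line came from separate cultures. The p-values therefore measure only the spread between arrays of the same line, pooled over the 3 lines, which may be technical. Gprc5a genotype, organ of origin, NNK exposure, age of the mouse and tumour state all differ between these 2 lines and cannot be told apart.

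Gprc5a is an orphan receptor induced by retinoic acid and found mainly in lung epithelium, and mice that lack it develop lung tumours. The trachea is lined by a pseudostratified epithelium whose basal cells, marked by keratins 5 and 14 and the transcription factor p63, are its stem cells, and these cells take on squamous features in culture or after injury. Lung adenocarcinomas are glandular tumours that usually carry simple epithelial keratins and often resemble alveolar type II or club cells. In mice, tumours that follow nitrosamine exposure commonly carry activated Ras, which signals through the MAP kinases and induces its own feedback inhibitors.

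The deposited columns had medians between 6.28 and 6.34, and across all probe sets Pearson's r was 0.994 to 0.995 between tumour arrays, 0.990 to 0.994 between wild-type arrays and 0.913 to 0.920 between the lines; probe sets are not independent replicates. RNA integrity was read from the beta-actin control probe sets as the 3' minus the 5' signal. It was 0.37, 0.60 and 0.74 on the tumour arrays and 0.75, 1.09 and 1.78 on the wild-type arrays, a difference of -0.64 (exact two-sided permutation p = 0.1, the smallest that 3 against 3 arrays allow) that ran from -0.87 to -0.35 with 1 array left out. The same measure from the Gapdh control probe sets was 0.21, 0.45 and 0.75 against 0.33, 0.90 and 1.20, which overlap (-0.34, exact permutation p = 0.3). The bacterial spike-in BioB read 7.96 ± 0.33 (SD, n = 3) on the tumour arrays and 8.48 ± 0.08 on the wild-type arrays. Spike-ins BioC (-0.57), BioDn (-0.47) and CreX (-0.28) also had lower means on the tumour arrays. The part of these technical differences in the results was not tested.

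In the tumour line, the deleted gene read low. Gprc5a gave 6.96, 7.02 and 7.09 on the tumour arrays and 8.63, 8.74 and 8.32 on the wild-type arrays, with 7.20, 7.09 and 7.18 on those of the knockout line. The tumour and wild-type values did not overlap, and the log2 difference was -1.54 ± 0.11 (SE of limma's fit, n = 3 arrays per line here and throughout; limma adjusted p = 3e-07). The gene has 1 probe set, whose place relative to the deletion was not given in the sources used here. Its relatives Gprc5b (-0.45), Gprc5c (-0.44) and Gprc5d (-0.10) were not called, where a gene is called when its adjusted p is under 0.05 and its change at least 2-fold.

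Sex-linked genes differed as well. Xist, the RNA that silences an X chromosome in female cells, read 11.15, 11.67 and 10.85 in the tumour line and 7.38, 7.88 and 7.48 in the wild-type line (3.64 ± 0.20, adjusted p = 2.72e-08). The Y-linked translation factor Eif2s3y read 3.19, 3.40 and 3.37 against 8.94, 8.92 and 9.13, and neither gene's arrays overlapped. Uty, also on the Y chromosome, fell by 1.47, while the brightest probe set of Kdm5d differed by -0.21 and was not called. Of the 4 measured sex-linked genes 1 was thus higher and 2 were lower. With a gene's probe sets averaged, the median of these 4 moved from -0.84 to -1.74. The tumour came from a female mouse and the labels give no sex for the other donors, so donor sex cannot be told apart from the other differences between the lines.

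Of 18193 genes, 3012 (16.6%) were called: 1472 (8.09%) were higher in tumour cells and 1540 (8.46%) lower. Among all 45037 probe sets the number was 5908 (13.1%), with 3015 higher (6.69%) and 2893 lower (6.42%). At least 4-fold differences were found for 978 genes and at least 16-fold for 193, of which 54 were higher and 139 lower. The tumour and wild-type arrays did not overlap for 3011 of the 3012 called genes, against 9960 of all genes (54.7%). The median log2 difference over all genes was 0.01. The deposited columns had near-equal medians, so this centre cannot show whether signal shifted as a whole between the lines. Several probe sets were available for 1787 of the called genes, and in 1022 of them a further probe set gave the same call, in 3 the reverse. All 3012 genes that differed at least 2-fold passed the test, with 0.0242 as the highest limma adjusted p, so the fold alone decided which genes were called. The size of a fold depended on the probe set read. With a gene's probe sets averaged, the fold of 91 of 383 called genes among the listed and named ones moved by over 1.5 times: Krt17, the leading fall, went from -9.82 to -6.87, Trp63 from -7.73 to -3.39, Rptn from -7.04 to -2.38 and Ramp1 from 5.22 to 2.14. With probe sets named _x_at or _s_at dropped, 15 of 378 moved that far, among them Xist (4.61), Snai2 (-3.89), Tgfbi (-5.88) and Bgn (5.83). Leaving out any 1 tumour or wild-type array moved 0 of the 383 that far.

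The fall of keratinocyte and basal cell genes gave the widest differences. Krt17, a keratin of basal and activated epithelium, read 3.80, 3.69 and 3.89 on the tumour arrays and 13.82, 13.53 and 13.49 on the wild-type arrays. The tumour values lay under 5.15, the 95th percentile of 27 bacterial control probe sets, which is used here as a floor. Where all 3 arrays of the dimmer line lie under it, the fold is computed against it. Such a fold is a lower bound for the probe set read. By that measure Krt17 was at least 354-fold lower in tumour cells (signal difference -9.82 ± 0.10, adjusted p = 1.8e-13). The serine protease inhibitor Spink5 was at least 217-fold lower, and Col17a1, the transmembrane collagen that fixes basal cells to their basement membrane, at least 366-fold lower. The desmosomal cadherins Dsc3 (at least 132-fold) and Dsg1b (at least 30.9-fold), the mucin Muc15 (at least 81.1-fold), the cornified layer proteins Rptn (at least 83.1-fold) and Krtdap (at least 109-fold), the calcium-binding Rcn1 (at least 87.8-fold) and the matrix protein Efemp1 (at least 43.6-fold) followed. With a gene's probe sets averaged, the log2 difference was -3.57 for Rcn1 and -5.44 for Dsc3, in place of -6.92 and -8.36.

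Of the 20 widest rises, 13 were of genes under the floor on all 3 wild-type arrays; the other 7, among them Ccn2 and Cldn7, had wild-type means from 5.49 to 8.03. Ctla2a, an inhibitor of cysteine cathepsins, read 12.96, 13.02 and 12.93 on the tumour arrays and 4.35, 4.48 and 4.62 on the wild-type arrays, which makes it at least 226-fold higher, and its near-identical neighbour Ctla2b was at least 81.8-fold higher. Probe sets of such closely related copies may share transcript, so the share of each is uncertain. Ctsz, a lysosomal cathepsin, was at least 27.2-fold higher in the tumour line, and its knockout mean was 9.96 beside 9.92 in the tumour line and 3.26 in the wild-type line. The actin-bundling plastin Lcp1 (at least 57.7-fold), the focal adhesion protein Parvb (at least 29.9-fold), the mucin-type glycosyltransferase Gcnt3 (at least 29.0-fold) and the BCL2 relative Bcl2l15 (at least 53-fold) were high on all 3 tumour arrays and under the floor on all 3 wild-type arrays. So were the MAP kinase phosphatase Dusp9 (at least 36.7-fold), Rhpn2 (at least 33.8-fold) and the lipase Lipo3 (at least 17.2-fold). With probe sets averaged, the log2 difference of Parvb went from 5.52 to 3.36, that of Ctsz from 6.66 to 4.63 and that of Rhpn2 from 5.40 to 6.06. Ramp1, a partner of the receptor for calcitonin gene-related peptide, was 37.3-fold higher from a wild-type mean of 5.49.

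**Figure D1:**
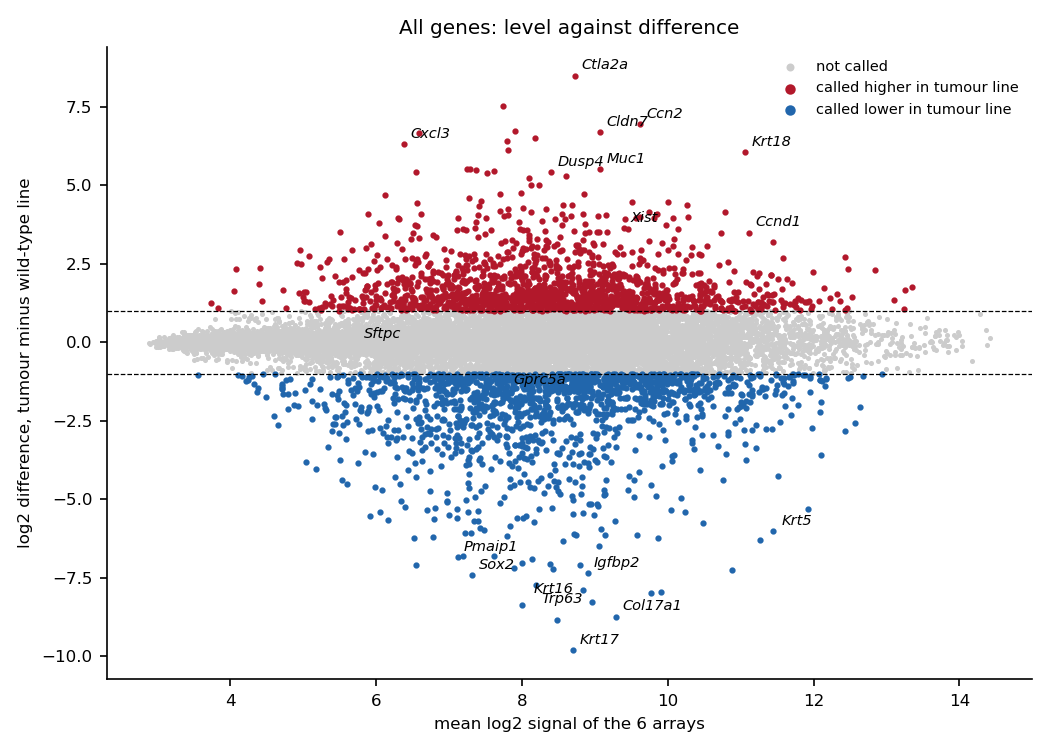
Log2 difference between tumour and wild-type line (vertical) against the mean log2 signal of the 6 arrays (horizontal), 1 point per gene; red and blue points are the 1472 genes called higher and the 1540 called lower, and dashed lines mark 2-fold. Falls reach further than rises: 139 genes fell at least 16-fold and 54 rose as far.

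Most basal cell genes were lower in the tumour line: 13 of 17 measured markers fell and 0 rose, with a median of -4.74, where 8.46% of all genes fell. Trp63, the p63 factor that maintains basal cells, read 4.29, 4.35 and 4.33 in the tumour line and 12.08, 12.08 and 12.00 in the wild-type line, with no overlap, and was at least 120-fold lower (-7.73 ± 0.12); 3 further Trp63 probe sets also fell. Krt5 read 8.47, 8.58 and 8.24 against 14.45, 14.47 and 14.45 (-6.03 ± 0.10, adjusted p = 1.27e-12), so signal above the floor was left in the tumour line. The same holds for Krt14, at 7.25 against 14.52. Krt15, at 5.82 against 12.31, was above the floor too, but bacterial control values reached 5.96. Sox2, a stem cell factor of the airway, read 3.59, 3.57 and 3.66 against 10.96, 11.09 and 11.07 and was at least 59.3-fold lower. Ngfr (-0.09), Bcl11a (0.08), the laminin chain Lamb3 (-0.72) and the integrin Itgb4 (0.58) were not called, and the call of Itga6 (-1.03) was lost without tumour replicate 1 (-0.98). In the knockout line, which is also of tracheal origin, Krt5 had a mean of 14.38, Trp63 of 10.69 and Sox2 of 11.17.

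Genes of squamous differentiation followed the same direction, with 25 of 29 members lower, 1 higher and a median of -4.41. Krt13, the keratin of squamous and hillock-type airway cells, read 5.04, 4.59 and 5.02 in the tumour and 12.85, 12.78 and 12.73 in the wild-type line and was at least 199-fold lower. Krt16 was at least 248-fold and Krt6b 251-fold lower, both keratins of activated keratinocytes, and the secreted protein Dmkn was 258-fold lower. Among precursors of the cornified envelope, Sprr1b (-6.09), Lce3a (-5.50) and Flg (-3.82) fell, and so did Tgm3 (-3.53), an enzyme that cross-links them. Involucrin, Ivl, went the other way: it read 7.70, 7.64 and 7.56 in the tumour line, 6.37, 6.49 and 6.37 in the wild-type line and 4.76, 4.88 and 5.16 in the knockout line, a difference of 1.23 ± 0.11 (adjusted p = 2e-06). Sprr2 genes and the pair Krt6a and Krt6b are close paralogs whose probe sets may share transcript.

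Keratins of simple, glandular epithelium were higher, with 5 of 7 called higher, 1 lower and a median of 1.83. Krt18 read 14.13, 14.12 and 14.00 on the tumour arrays and 8.17, 8.09 and 7.83 on the wild-type arrays, 66.3-fold higher without overlap (6.05 ± 0.14). Its partner Krt8 read 13.92, 13.96 and 14.10 against 11.57, 11.69 and 11.79 (2.31 ± 0.10). Krt7 (1.65 ± 0.11) and Krt20 (2.96 ± 0.14) rose too. Krt19 rose by 1.83 ± 0.13 from a wild-type mean of 10.22, whereas the knockout line had a mean of 5.32. Krt23 fell by 1.25 and Krt80 was not called.

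**Figure D2:**
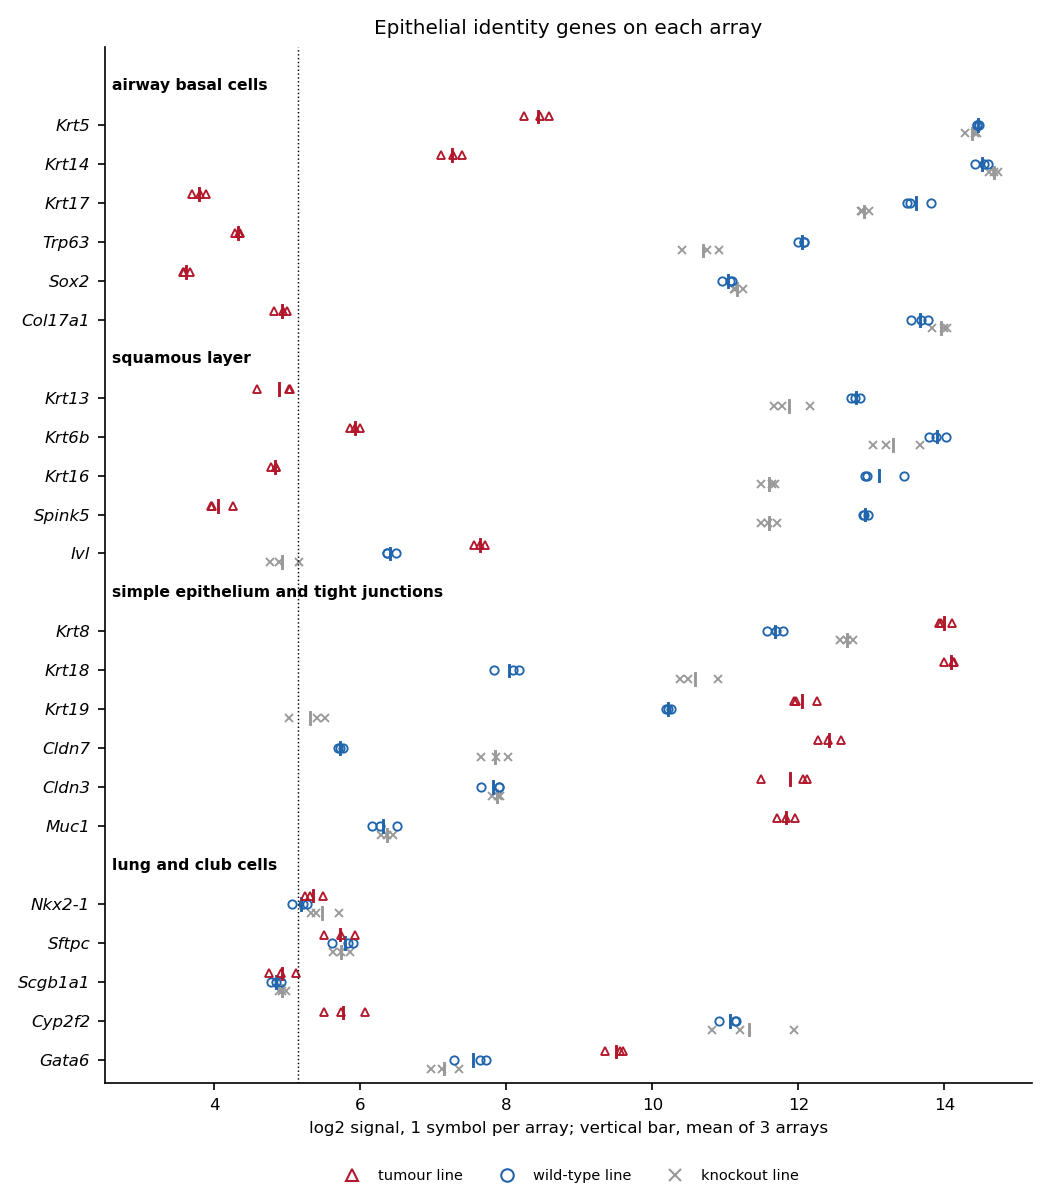
Log2 signal (horizontal) of epithelial genes on each array, triangles for the tumour line, circles for the wild-type line and crosses for the knockout line. Short bars are means of 3 arrays and the dotted line is the floor of 5.15. Basal and squamous genes apart from Ivl sit far to the left in the tumour line, simple keratins, claudins and Muc1 to the right, and Nkx2-1, Sftpc and Scgb1a1 stay near the floor in all lines.

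Cell junctions changed by type. Claudins and tight junction genes, which seal glandular epithelium, had 8 of 19 members higher and 2 lower (median 0.52). Cldn7 read 12.41, 12.27 and 12.58 in the tumour line and 5.70, 5.72 and 5.76 in the wild-type line, 104-fold higher; the knockout line lay between them at 7.65, 8.02 and 7.86. Cldn3 (4.07 ± 0.15), Cldn2 (3.06 ± 0.11) and the scaffold Tjp3 (1.91 ± 0.13) rose, Cldn1 (-3.06 ± 0.19) and Cldn6 (-2.74 ± 0.17) fell, and the lung claudin Cldn18 (0.22) and Ocln (0.90) were not called.

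Desmosomes, the plaques that hold squamous cells together, had 9 of 12 members lower and 2 higher (median -1.71). Among the cadherins, Dsc3 (-8.36) and Dsc2 (-5.42) fell, while Dsg2, the form of simple epithelium, rose by 2.51 ± 0.10. Of the plaque proteins, Pkp1 (-3.59), Dsp (-2.82) and Jup (-1.35) fell and Pkp2 rose (1.72). Hemidesmosomes and basement membrane anchors had 4 of 9 lower and 0 higher (median -0.81), among them Col17a1, the plakin Dst (-6.15) and the anchoring fibril collagen Col7a1 (-3.60). With its probe sets averaged, Dst differed by -3.09.

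Alveolar type II and lung lineage genes moved in both directions, with 5 of 19 higher and 3 lower (median 0.17). The surfactant gene Sftpc read 5.50, 5.93 and 5.73 in the tumour line and 5.61, 5.90 and 5.84 in the wild-type line, which overlap (-0.06 ± 0.12, adjusted p = 0.752). Nkx2-1, the factor that defines lung epithelium, read 5.25, 5.48 and 5.32 against 5.22, 5.06 and 5.27 (0.16) and was close to the floor in both lines. The tumour label of a lung adenocarcinoma line was thus not accompanied by signal from these defining markers above that of the tracheal line. The mucin Muc1 read 11.84, 11.96 and 11.70 against 6.27, 6.50 and 6.16 and was 45.9-fold higher; the phospholipid enzyme Lpcat1 (2.79 ± 0.12), the endoderm factor Gata6 (1.95 ± 0.13) and the surfactant-associated collectin Sftpd (1.81 ± 0.11) also rose. Hopx (-3.23), Cebpa (-2.25) and Sox9 (-1.29) fell, the last without a call when a gene's probe sets were averaged.

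Airway secretory cell genes had 3 of 20 members higher and 3 lower, with a median of 0.01, beside 8.09% higher and 8.46% lower of all genes. The club cell protein Scgb1a1 was near the floor in both lines (4.93 and 4.85) and not called. Cyp2f2, a club cell cytochrome, read 6.06, 5.74 and 5.50 in the tumour line and 10.92, 11.15 and 11.13 in the wild-type line (-5.30 ± 0.24), and the carbonyl reductase Cbr2 fell as well (-6.12 ± 0.11). Aldh3a1 fell (-1.99), Ltf (1.15) and Aldh1a1 (2.11) rose, and the call of Muc4 (2.94) was lost when names in _x_at or _s_at were dropped, probe sets that can match several transcripts.

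Cadherins and factors of the mesenchymal transition had 1 of 20 higher and 7 lower (median -0.47). For this and the gut and Hox counts below, the shares over all genes were 8.09% higher and 8.46% lower. E-cadherin, Cdh1, read 11.92, 11.89 and 11.94 in the tumour line and 12.89, 12.97 and 12.80 in the wild-type line, a difference of -0.97 just short of 2-fold, and Vim read 6.99 against 6.16 (0.83, not called). The zinc finger repressor Snai2 fell by 4.94 ± 0.08. Factors of epithelial identity fell too, namely Grhl3 (-4.45), Grhl1 (-3.95) and Ovol1 (-2.58), as did P-cadherin, Cdh3 (-2.34); fibronectin, Fn1, rose by 1.27. Genes of gut and oncofetal programmes had 3 of 17 higher and 0 lower (median 0.02), with the chromatin protein Hmga2 at 11.24, 11.55 and 11.65 against 8.43, 8.63 and 8.52 (2.95 ± 0.11) and Hnf4a not called (0.66). Hox genes had 3 of 22 lower and 0 higher (median -0.11), led by Hoxa9 (-3.94 ± 0.09) and Hoxa2 (-3.57 ± 0.11). The brightest Hoxa5 probe set was not called (0.01), but its value was -2.13 without probe sets of shared specificity, and Hoxb5 was not called.

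**Figure D3:**
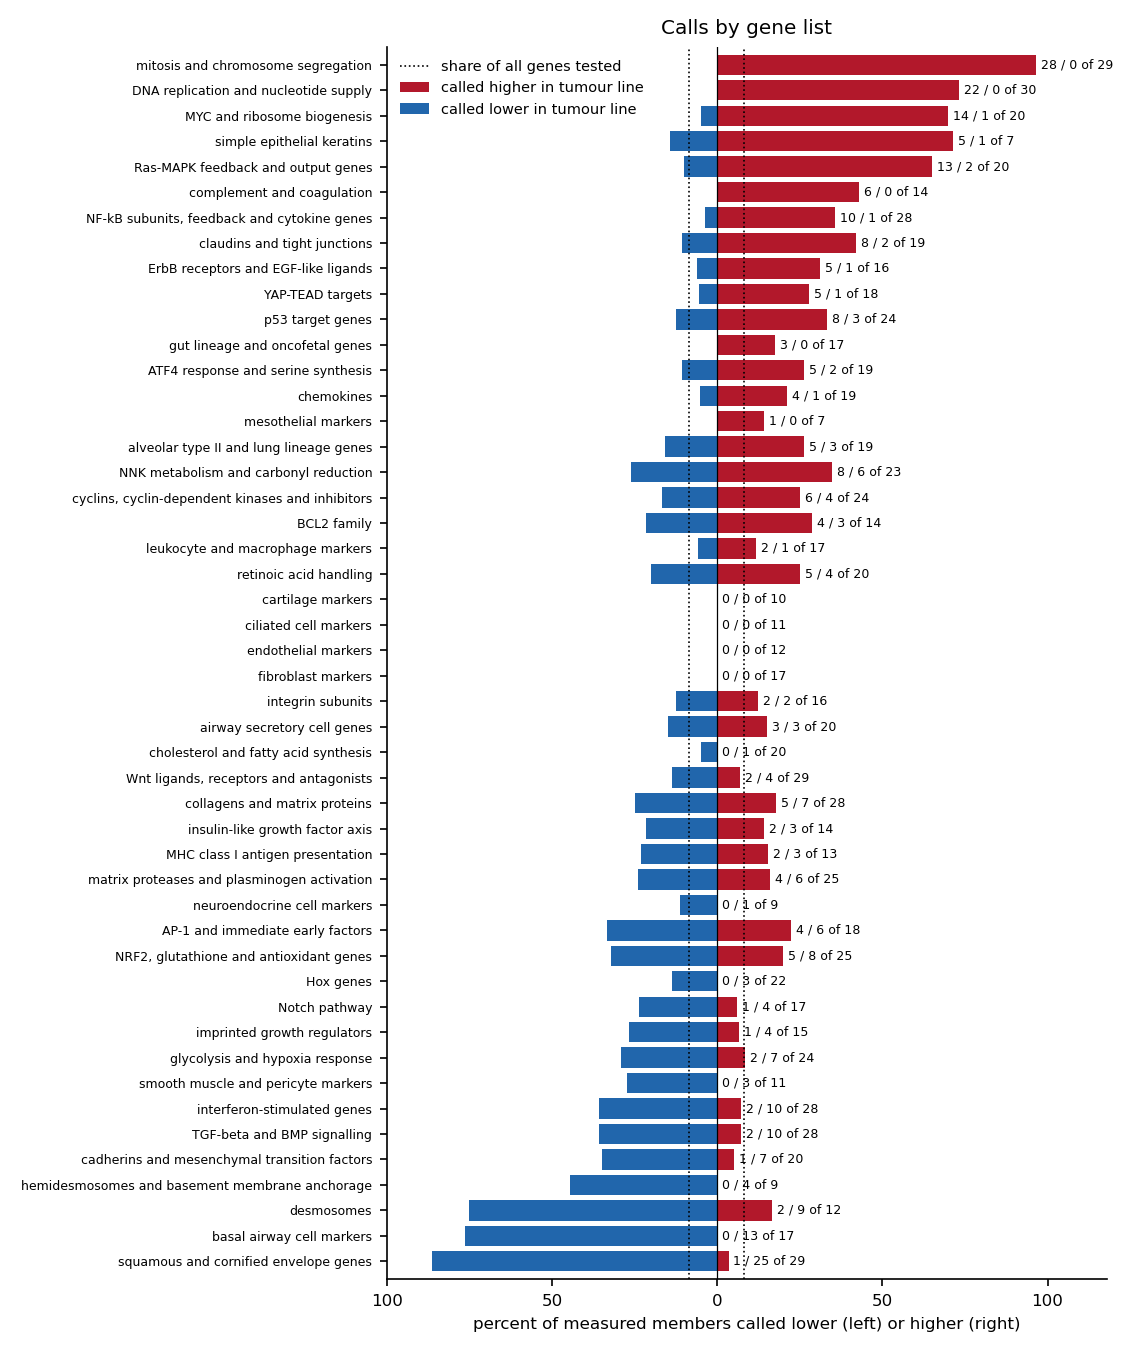
Percent of measured members called higher (red, right) and lower (blue, left) in the tumour line for 48 gene lists, with the counts as higher / lower of measured; dotted lines mark the shares of all genes, 8.09% higher and 8.46% lower. Mitosis, with 28 of 29 higher, and squamous genes, with 25 of 29 lower, lie at the ends.

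Most genes of DNA replication and mitosis were higher in tumour cells. These genes are switched on together as cells divide: replication genes by E2F factors, and mitotic genes through the cell cycle gene homology region (CHR), a short promoter element bound by repressor and activator complexes of the cell cycle. Of 30 measured genes of DNA replication and nucleotide supply 22 rose and 0 fell, with a median of 1.48. Of 29 mitosis genes 28 rose and 0 fell, with a median of 2.07, and the securin Pttg1 (0.75) was the member not called.

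The promoters of these genes are shown as background to both lists. Promoter windows of 300 bases, from 250 before to 50 after the transcription start, were taken from RefSeq on GRCm38.p6 and searched on both strands. E2F letters (TTTCCCGC, TTTCGCGC, TTTGGCGC or TTTGCCGC) occurred in 13 of 31 windows of the replication genes (41.9%), against 2.26% of all 32851 windows. CHR letters (TTTGAA) occurred in 18 of 24 windows of the mitosis genes (75.0%), against 17.9% of all windows. Conversely, CHR letters were in 12.9% of the replication windows and E2F letters in 4.17% of the mitosis windows. These are matches of letters, not measured binding, and E2F and CHR matches shared bases in 0 of all windows. The shares follow from which genes the lists hold and do not depend on the arrays. Of 13 replication genes with E2F letters 10 were called, beside 22 of the 30 measured. Of 17 mitosis genes with CHR letters 17 were called, beside 28 of 29. For the 4 called replication genes with the widest changes among those with a match before the transcription start, 60 bases around the match are printed 5′ to 3′ on the gene's own strand, with the E2F letters in capitals.
Cdc6 (chr11:98907987-98908046, plus strand): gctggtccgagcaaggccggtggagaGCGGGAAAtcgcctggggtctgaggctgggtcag
Uhrf1 (chr17:56304102-56304161, plus strand): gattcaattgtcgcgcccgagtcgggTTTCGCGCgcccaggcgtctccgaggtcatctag
Mcm6 (chr1:128359719-128359778, minus strand): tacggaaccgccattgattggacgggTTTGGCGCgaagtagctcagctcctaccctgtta
Mcm7 (chr5:138172015-138172074, minus strand): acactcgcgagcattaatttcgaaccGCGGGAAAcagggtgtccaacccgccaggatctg
For mitosis genes, chosen the same way, the capitals mark the CHR letters.
Espl1 (chr15:102296233-102296292, plus strand): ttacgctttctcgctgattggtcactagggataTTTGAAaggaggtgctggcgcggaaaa
Cdk1 (chr10:69352913-69352972, minus strand): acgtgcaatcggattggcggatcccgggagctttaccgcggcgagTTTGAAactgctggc
Ccnb2 (chr9:70421689-70421748, minus strand): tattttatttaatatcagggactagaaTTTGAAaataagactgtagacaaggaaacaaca
Cdc20 (chr4:118437344-118437403, minus strand): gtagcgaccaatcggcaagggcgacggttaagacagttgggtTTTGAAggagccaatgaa

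Among the replication genes, Cdc6, which loads the replicative helicase, read 9.86, 9.73 and 9.82 on the tumour arrays, 6.31, 6.48 and 6.38 on the wild-type arrays and 5.21, 5.22 and 5.51 on the knockout arrays. It was 10.7-fold higher than in the wild-type line (3.41 ± 0.10, adjusted p = 1.57e-10), without overlap. The helicase subunits rose together: Mcm2 by 2.27 ± 0.11, Mcm3 by 2.08, Mcm4 by 1.86, Mcm6 by 2.01 and Mcm7 by 1.85, and the call of Mcm5 (1.09) was lost without tumour replicate 2 (0.97) and when its probe sets were averaged (0.93). The GINS subunit Gins1 (2.48 ± 0.12), thymidine kinase Tk1 (2.68 ± 0.10), the methylation maintenance factor Uhrf1 (2.18 ± 0.17) and the sliding clamp Pcna (1.55 ± 0.09) also rose. Origin recognition genes Orc1 (0.23) and Orc6 (0.28) were not called.

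In mitosis, the kinase Cdk1 read 11.41, 11.57 and 11.56 in the tumour line and 9.20, 9.45 and 9.30 in the wild-type line (2.20 ± 0.09), and its cyclin Ccna2 rose by 2.62 ± 0.12. The proliferation marker Mki67 read 10.53, 10.70 and 10.51 against 9.06, 9.03 and 9.06 (1.53 ± 0.14). Members with the widest rises were the kinesins Kif23 (2.86 ± 0.09) and Kif20a (2.70 ± 0.13), the checkpoint genes Mad2l1 (2.77 ± 0.11) and Bub1 (2.51 ± 0.14) and the spindle protein Tpx2 (2.48 ± 0.10). No tumour array overlapped the wild-type arrays for any of these genes, which was so for 3011 of all 3012 called genes.

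**Figure D4:**
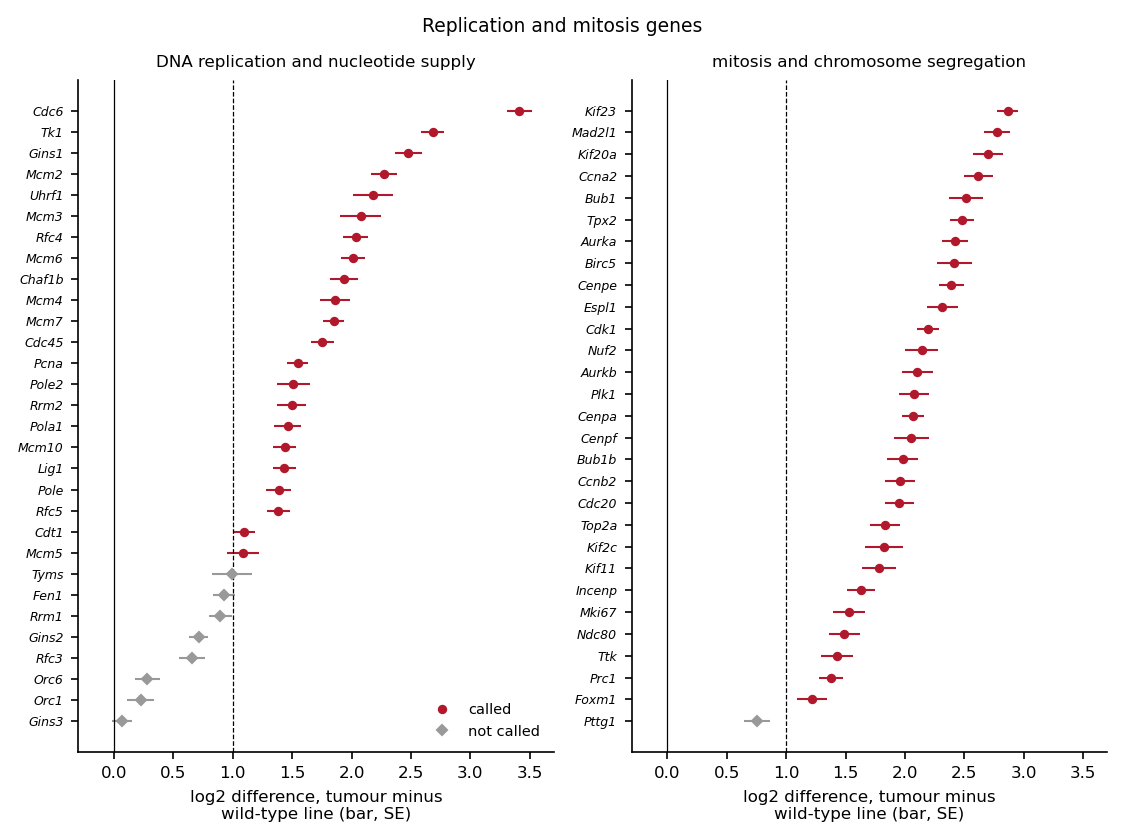
Log2 difference between tumour and wild-type line for the 30 measured replication genes (left) and the 29 mitosis genes (right), with the SE of limma's fit as bars; red circles are called and grey diamonds are not, and the dashed line marks 2-fold. Values run from 0.07 for Gins3 to 3.41 for Cdc6 on the left and from 0.75 for Pttg1 to 2.86 for Kif23 on the right.

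Regulators upstream of division moved in both directions, with 6 of 24 cyclins, kinases and inhibitors higher and 4 lower (median -0.16). Among D cyclins, which start the cycle with Cdk4 and Cdk6, Ccnd1 read 13.03, 12.83 and 12.71 in the tumour line and 9.31, 9.49 and 9.29 in the wild-type line, 11.3-fold higher (3.49 ± 0.12). Ccnd2 went the opposite way, 7.09, 7.65 and 7.35 against 12.95, 12.78 and 12.43 (-5.35 ± 0.16), and Ccnd3 (-0.80) was not called. Of the 4 INK4 inhibitors of these kinases, 2 fell and 2 were not called. Cdkn2b read 6.12, 5.59 and 5.83 against 10.30, 10.41 and 10.26 (-4.47 ± 0.14). Cdkn2a, a locus that also encodes the p53 activator ARF, read 5.34, 5.12 and 5.12 in the tumour line, 9.07, 8.99 and 8.52 in the wild-type line and 6.86, 7.03 and 6.82 in the knockout line. Tumour values were near the floor, and the difference was -3.67 ± 0.14 (adjusted p = 1.2e-09). Cdkn2c (-0.31) and Cdkn2d (-0.47) were not called. The atypical factors E2f8 (2.04 ± 0.14) and E2f7 (1.33) rose, and the Rb relative Rbl2 fell by 1.54.

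Target genes of p53, which act in arrest, repair and death, had 8 of 24 members higher and 3 lower (median 0.48); Trp53 itself is not analysed here. Mdm2, the ligase that degrades p53, read 12.51, 12.41 and 12.67 in the tumour line, 10.61, 10.40 and 10.51 in the wild-type line and 11.81, 11.73 and 11.46 in the knockout line (2.02 ± 0.11). Eda2r (2.51 ± 0.15), Zmat3 (2.48 ± 0.11), Plk2 (2.18 ± 0.21), Aen (2.17 ± 0.10) and Ccng1 (2.13 ± 0.11) rose, and the arrest gene Cdkn1a was not called (0.58). Genes of cell death on the same list split. The BH3 protein Pmaip1 (Noxa) read 3.72, 3.74 and 3.63 on the tumour arrays and 10.45, 10.46 and 10.74 on the wild-type arrays, at least 42.2-fold lower, while Bbc3 (0.49) and Fas (0.46) were not called and the death receptor Tnfrsf10b rose by 1.47. The stress sensor Sesn1 (-3.02) and the junction gene Perp (-2.08) fell.

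In the BCL2 family, 4 of 14 members were higher and 3 lower (median 0.12). The protective members Bcl2 (2.19 ± 0.14) and Bcl2l1 (1.44 ± 0.11) rose and Mcl1 (0.11) and Bcl2l2 (-0.34) were not called. Of the BH3-only members, Bid (1.24) and Bcl2l11 (1.31) rose and Pmaip1 fell. Calls of Bmf (-1.60) and Bad (-1.17), both lower, were lost with a gene's probe sets averaged (-0.42 and -0.95, the latter just short of 2-fold). Bcl2l15, among the widest rises above, is not on this list.

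Feedback and output genes of the Ras and MAP kinase pathway were mostly higher, 13 of 20 with 2 lower and a median of 1.82. Among phosphatases that switch off MAP kinases, Dusp4 read 11.26, 11.19 and 10.90 in the tumour line and 6.01, 5.53 and 5.56 in the wild-type line, 42.7-fold higher, and Dusp6, the ERK-specific form, read 10.92, 10.76 and 10.34 against 6.79, 6.56 and 6.63 (4.02 ± 0.16, adjusted p = 1.77e-09). Dusp5 rose by 2.93 ± 0.13, and Dusp7 lost its call of -1.18 with probe sets averaged. Of the Sprouty inhibitors, Spry2 (3.02 ± 0.22) and Spry1 (2.11 ± 0.10) rose and Spry4 (0.81) was not called. Plaur, the urokinase receptor, rose by 3.19 ± 0.24. The ETS factor Etv4 rose by 2.36 ± 0.11 and its relative Etv5 was not called (0.81). Arrays of the 2 lines did not overlap for Dusp4, Dusp6, Spry2 or Ccnd1, which was so for 3011 of all 3012 called genes.

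Receptors of the EGF family were not called, with Egfr at 0.29, Erbb2 at -0.99, Erbb3 at -0.60 and Erbb4 at -0.14. Their ligands and inhibitors gave 5 of 16 members of that list higher and 1 lower (median 0.06). The ligand Hbegf rose from a mean of 7.90 to 10.32 (2.41 ± 0.23), and Ereg (1.12) and Tgfa (1.15) by less, the last without a call when its probe sets were averaged (0.78). The receptor inhibitor Lrig1 rose (1.85 ± 0.12) and Lrig3 fell (-2.58 ± 0.13); without probe sets of shared specificity their values were 2.68 and -5.25.

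Immediate early factors, which respond to these kinases within minutes, moved both ways, 4 of 18 higher and 6 lower (median -0.11). Fosl1 read 8.77, 9.01 and 8.78 against 6.36, 6.46 and 6.42 (2.44 ± 0.09), and Fosb (1.62) and Maff (1.73) rose. Fosl2 (-2.43 ± 0.10), Klf4 (-2.04 ± 0.10) and Egr1 (-1.66 ± 0.10) fell. Fos itself was not called (-0.26). The call of Jun (-1.01) was lost without tumour replicate 2 (-0.95), tumour replicate 3 (-0.96) or wild-type replicate 1 (-0.77).

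Targets of YAP and TEAD, the effectors of the Hippo pathway, had 5 of 18 members higher and 1 lower (median 0.48). Ccn2, a matrix-bound growth factor, read 13.04, 13.12 and 13.11 in the tumour line and 6.67, 5.91 and 5.86 in the wild-type line and was 123-fold higher (6.94 ± 0.21). Ankrd1 read 11.48, 11.46 and 11.37 against 4.91, 4.80 and 5.09, at least 78.3-fold higher, and Ccn1 rose by 1.47 ± 0.14. Tissue factor, F3, rose by 2.12 ± 0.17 and Tead1 by 1.85 ± 0.13. The ecto-nucleotidase Nt5e fell (-2.30 ± 0.12), and Yap1 (-0.89), Axl (0.57) and Amotl2 (0.86) were not called, so the list's counts rest on few of its members.

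**Figure D5:**
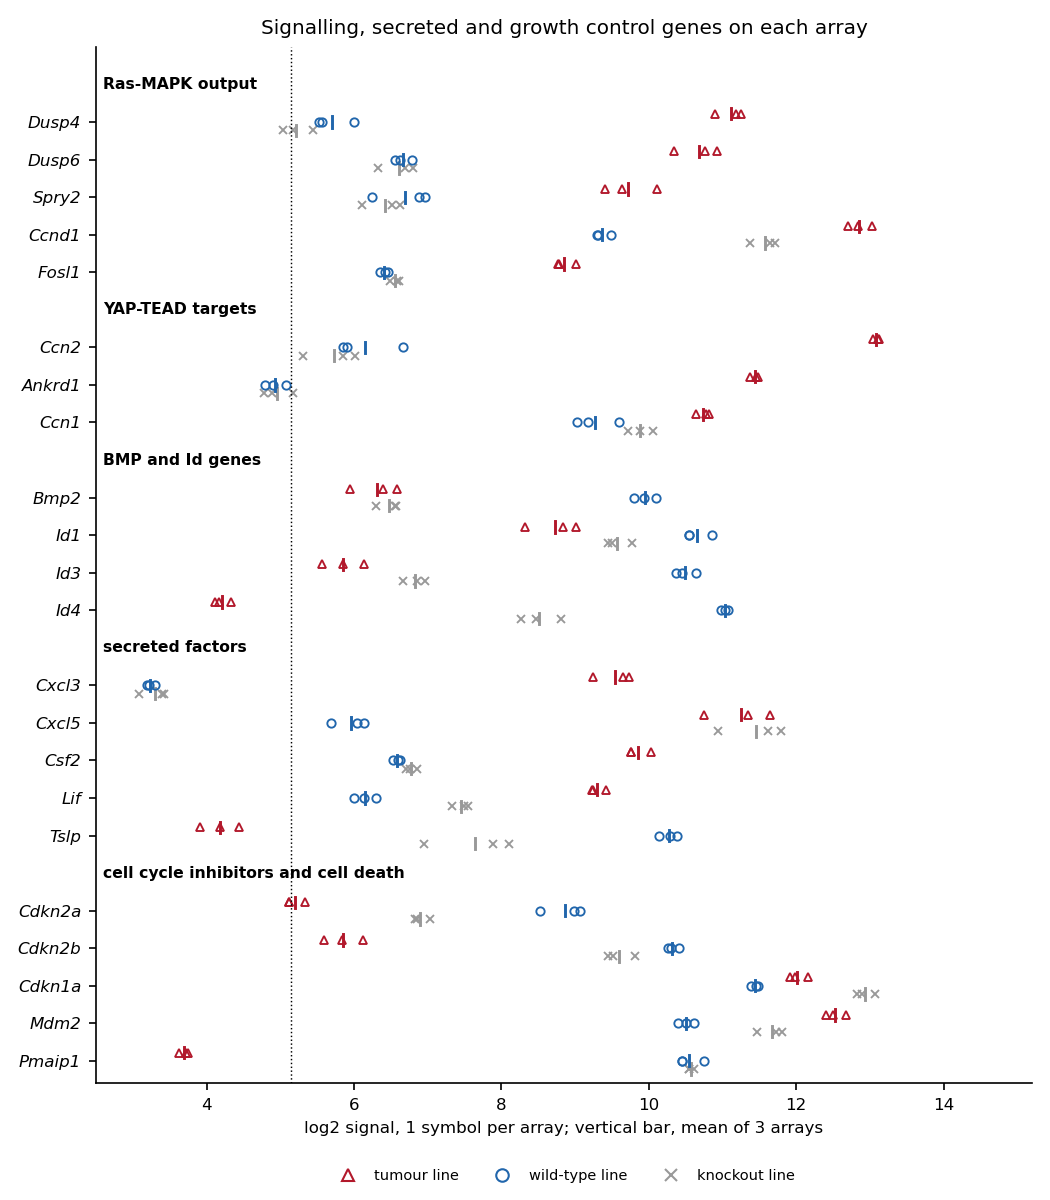
Log2 signal (horizontal) of 22 signalling, secreted and growth control genes on each array, with triangles for the tumour line, circles for the wild-type line and crosses for the knockout line; short bars are means of 3 arrays and the dotted line is the floor of 5.15. Dusp4, Ccn2, Ankrd1 and Cxcl3 are high on the tumour arrays alone among the 3 lines, Cxcl5 on the tumour and knockout arrays, and Pmaip1 lies under the floor on the tumour arrays.

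BMP and TGF-beta pathway genes were lower where they changed most, with 10 of 28 lower and 2 higher (median -0.39). The ligand Bmp2 read 6.39, 5.95 and 6.58 in the tumour line, 9.94, 10.10 and 9.80 in the wild-type line and 6.58, 6.3 and 6.56 in the knockout line (-3.64 ± 0.15). Id genes, direct targets of BMP signalling, split: Id4 was at least 59.1-fold lower, Id3 (-4.64 ± 0.14) and Id1 (-1.93 ± 0.17) fell, and Id2 (0.56) was not called. The secreted inhibitors Sostdc1 (-5.71) and Fst (-2.89) and the TGF-beta-induced matrix protein Tgfbi (-7.24 ± 0.09) fell. The ligands Tgfb1 (-0.19), Tgfb2 (-0.61) and Tgfb3 (0.16) were not called; the receptor Tgfbr1 (1.45) and the inhibitor Smad7 (1.62) rose.

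Wnt genes had 2 of 29 higher and 4 lower (median -0.22). For this count and the Notch count below, the shares over all genes were 8.09% higher and 8.46% lower. Among ligands, Wnt4 read 7.38, 7.52 and 7.31 against 12.51, 12.21 and 12.16 (-4.89 ± 0.11), Wnt10a fell by 4.33 ± 0.11 and Wnt7b rose by 1.34; the receptor Fzd6 fell (-2.86). The common target genes Axin2 (-0.38) and Lef1 (-0.40) were not called. In the Notch pathway 1 of 17 was higher and 4 lower (median -0.07): the receptor Notch3 (-2.39) and the ligands Jag2 (-2.19) and Dll1 (-2.07) fell, Dtx4 rose (1.87), and Notch1 (-0.41) and its target Hes1 (-0.84) were not called.

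The insulin-like growth factor axis had 2 of 14 higher and 3 lower (median -0.42), mostly binding proteins. Igfbp2 read 5.11, 5.22 and 5.35 in the tumour line, 12.85, 12.25 and 12.66 in the wild-type line and 5.15, 5.24 and 5.28 in the knockout line, a difference of -7.36 ± 0.14 between tumour and wild-type line; 2 of the 3 tumour values were above the floor, and only just. Igfbp3 fell by 2.57 ± 0.10 and Igfbp4 rose by 2.20 ± 0.12 (5.25 without probe sets of shared specificity and 3.40 with probe sets averaged), and Igf1r (-0.96) and Igf2 (-0.37) were not called. Of imprinted growth regulators, 1 of 15 was higher and 4 lower (median -0.36); Peg3 (-4.84 ± 0.28) and Plagl1 (-4.26 ± 0.09) fell and Phlda2 rose (2.52 ± 0.18). The call of Dlk1 (-1.06) was lost without tumour replicate 3 (-0.97), without wild-type replicate 3 (-0.94), with probe sets averaged (-0.41) and without probe sets of shared specificity, where its value was 0.24, and H19 is not analysed here.

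Interferon-stimulated genes, which restrict viruses, were lower for 10 of 28 members and higher for 2 (median -0.67). Ifitm3, which blocks viral entry, read 5.10, 5.50 and 5.16 in the tumour line, 12.26, 12.50 and 12.26 in the wild-type line and 13.26, 13.35 and 13.28 in the knockout line, a difference of -7.09 ± 0.12 between tumour and wild-type line, with 2 of the 3 tumour values just above the floor. Ifit1, a sensor of foreign RNA, read 4.73, 4.59 and 4.84 against 9.99, 10.32 and 9.95 and 8.37, 7.43 and 7.30 and was at least 30.7-fold lower. The GTPase Gbp2 fell by 3.35 ± 0.11, with 1 of the 3 tumour values above the floor, and the apoptosis factor Xaf1 fell by 3.29 ± 0.15. Mx1 (2.94 ± 0.08) and the interferon feedback gene Usp18 (1.60 ± 0.11) rose. Irf7 (-0.67) was not called.

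The interferon-stimulated response element, searched on both strands as a pair of GAAA repeats with any 2 bases between them, occurred in 12 of 28 windows of these genes (42.9%), against 3.44% of all windows. Of the 12 genes with a match 5 were called, beside 12 of all 28 measured genes of the list and 16.6% of all genes. Stretches of 60 bases are printed for the called genes with the widest changes that hold the element, to show its place in their promoters, with its letters in capitals.
Ifit1 (chr19:34640779-34640838, plus strand): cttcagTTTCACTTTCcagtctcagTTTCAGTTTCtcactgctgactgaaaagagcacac
Gbp2 (chr3:142620579-142620638, plus strand): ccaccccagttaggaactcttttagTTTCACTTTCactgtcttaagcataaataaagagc
Gbp3 (chr3:142559980-142560039, plus strand): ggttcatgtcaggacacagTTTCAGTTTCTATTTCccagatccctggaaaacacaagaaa
Rsad2 (chr12:26456538-26456597, minus strand): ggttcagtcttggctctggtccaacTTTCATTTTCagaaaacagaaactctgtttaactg

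Antigen presentation by MHC class I had 2 of 13 genes higher and 3 lower (median -0.62). Tapbp, which loads peptides, fell by 2.16 ± 0.11; B2m (-0.81) was not called, and Tap1 (-1.41) lost its call with probe sets averaged, as did the rises of the polymorphic paralogs H2-K1 (1.26) and H2-D1 (1.30).

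NF-kB subunits, feedback genes and cytokines had 10 of 28 members higher and 1 lower (median 0.34). The subunits Rela (-0.08), Relb (0.05), Rel (-0.78) and Nfkb2 (0.14) were not called. Growth factors of myeloid cells rose: Csf2 read 10.03, 9.77 and 9.76 against 6.52, 6.62 and 6.60 (3.27 ± 0.10), Csf1 rose by 2.72 ± 0.11 and Csf3 by 1.32. The cytokines Lif (3.15 ± 0.10), Il1a (2.41 ± 0.15) and Il33 (2.03) and the feedback enzyme Tnfaip3 (3.16 ± 0.08) rose as well. The alarmin Tslp fell, with 3.92, 4.18 and 4.44 in the tumour line, 10.39, 10.29 and 10.14 in the wild-type line and 6.95, 8.10 and 7.89 in the knockout line (at least 34.9-fold lower), while Il6 (-0.13) and Nfkbia (-0.97) were not called.

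Of 19 chemokines 4 were higher and 1 lower (median 0.24), and the 4 were the neutrophil attractants Cxcl2, Cxcl3 and Cxcl5 and, not with its probe sets averaged, Cx3cl1. Cxcl3 read 9.73, 9.24 and 9.65 on the tumour arrays, 3.19, 3.21 and 3.30 on the wild-type arrays and 3.09, 3.42 and 3.40 on the knockout arrays, at least 21.0-fold higher than in the wild-type line. Cxcl5 read 11.35, 10.75 and 11.65, 5.69, 6.13 and 6.04 and 10.94, 11.80 and 11.61 in the same order, 39.3-fold higher in the tumour than in the wild-type line. Cxcl2 rose by 1.60 ± 0.15, and Cxcl1 (0.79), Ccl2 (0.12) and Cxcl10 (-0.27) were not called.

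Complement and coagulation genes had 6 of 14 higher and 0 lower (median 0.18). The thrombin receptor F2r read 12.38, 12.50 and 12.48 in the tumour line and 7.93, 8.10 and 8.18 in the wild-type line (4.38 ± 0.10). The protein C receptor Procr (3.72 ± 0.09), thrombomodulin, Thbd (3.31 ± 0.20), annexin Anxa5 (2.67 ± 0.09), tissue factor and the complement inhibitor Cd55 (1.94 ± 0.13) rose, and C3 is not analysed here. These are mostly surface proteins of the clotting system, while the secreted complement genes Cfb (0.22) and C1s1 (-0.35) were not called.

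Enzymes that handle NNK and other carbonyl compounds moved both ways, with 8 of 23 higher and 6 lower (median 0.19). NNK is activated by cytochromes, and its carbonyl group can be reduced by reductases. Of the 5 aldo-keto reductases on the list 3 rose, while Akr1a1 (-0.42) and Akr1c18 (-0.54) were not called. Akr1c13 read 9.90, 10.20 and 10.23 in the tumour line, 4.42, 4.65 and 4.82 in the wild-type line and 9.08, 9.42 and 9.15 in the knockout line (at least 31.2-fold higher than in the wild-type line), Akr1b8 rose by 3.98 ± 0.11 and Akr1c12 by 3.82 ± 0.11. Akr1c genes are close paralogs whose probe sets may share transcript. Aldehyde dehydrogenase Aldh2 read 11.08, 11.01 and 11.06 against 7.19, 6.87 and 7.03 (4.02 ± 0.10), a difference of 1.48 with its probe sets averaged. The short-chain reductases went the other way, with Cbr2 at 5.61, 5.82 and 5.56 against 11.93, 11.69 and 11.71 and Cbr3 at -2.35, while Cbr1 was not called (0.14). Among cytochromes, Cyp2f2 and Cyp2s1 (-1.57) fell, Cyp1a1 (-0.21) and Cyp2e1 (-0.00) were not called, and Cyp2a5 is not analysed here.

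Glutathione and antioxidant genes had 5 of 25 higher and 8 lower (median 0.32, above 0 although falls outnumbered rises). Glutathione transferases fell, with Gsta2 at -3.40 ± 0.20, Gsta4 at -2.54 ± 0.14 and Gsta3 at -1.92 ± 0.12, as did the peroxidase Gpx2 (-2.76 ± 0.10) and catalase, Cat (-1.66). Thioredoxin reductase, Txnrd1, rose from 8.73, 8.81 and 8.91 to 11.82, 11.82 and 11.95 (3.04 ± 0.09) and the cystine transporter Slc7a11 by 1.74 ± 0.24. Of the NRF2 targets used as markers, Nqo1 was not called (0.34) and Hmox1 fell by 1.15.

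Retinoic acid handling, the pathway that induces Gprc5a, had 5 of 20 higher and 4 lower (median 0.07). Rdh10, which oxidises retinol, read 12.75, 12.76 and 13.07 in the tumour line and 8.67, 8.79 and 8.68 in the wild-type line (4.15 ± 0.17), and Aldh1a1, which completes the synthesis, rose by 2.11 ± 0.17. The carrier Crabp2 read 6.21, 6.21 and 6.15 against 11.26, 11.17 and 11.20 (-5.02 ± 0.09). The receptors Rara (0.70), Rarb (-0.13) and Rarg (-0.88) were not called.

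MYC and ribosome biogenesis genes, which set the capacity for protein synthesis, had 14 of 20 higher and 1 lower (median 1.15). Myc read 10.87, 10.53 and 10.59 in the tumour line and 9.32, 9.05 and 9.50 in the wild-type line (1.37 ± 0.14), and its relative Mycl fell (-3.51 ± 0.19). The nucleolar proteins Ncl (1.44 ± 0.12), Nop58 (1.83 ± 0.17) and Nop56 (1.69 ± 0.14) and the pyrimidine enzyme Cad (2.15 ± 0.11) rose. Glycolysis and hypoxia genes had 2 of 24 higher and 7 lower (median 0.00): hexokinase Hk2 (1.44 ± 0.14) and Pfkfb3 (1.49) rose, Ndrg1 (-2.96 ± 0.10) and Aldoc (-2.88 ± 0.13) fell, Ldha (0.18) was not called, and the call of the glucose transporter Slc2a1 (-1.04) was lost without tumour replicate 1 (-0.98), without wild-type replicate 3 (-0.96) or with probe sets averaged (-0.88). The ATF4 response and serine synthesis had 5 of 19 higher and 2 lower (median 0.33), with Atf4 at 1.21, a call lost with probe sets averaged (0.79, where 3 genes of the list were higher), Mthfd2 at 1.58 and Phgdh, not called, at 0.30. Cholesterol and fatty acid synthesis had 0 of 20 higher and 1 lower (median 0.07), Dhcr7 at -1.07; Fasn (0.67) was not called.

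Matrix genes were rearranged, with 5 of 28 higher and 7 lower (median -0.03). For this and the protease and integrin counts below, the shares over all genes were 8.09% higher and 8.46% lower. Basement membrane collagen Col4a1 read 8.59, 8.74 and 8.99 against 12.06, 12.10 and 11.53 (-3.12 ± 0.15) and Col4a2 fell by 2.5. The matricellular proteins Tnc (-4.79 ± 0.15) and Sparc (-2.67) fell, while the proteoglycan Bgn read 12.04, 12.49 and 12.19 against 7.65, 7.62 and 8.06 (4.47 ± 0.17) and thrombospondin, Thbs1, rose by 3.96 ± 0.23. Matrix proteases and plasminogen activation had 4 of 25 higher and 6 lower (median -0.13). Collagenase Mmp13 was at least 9.58-fold higher; Adamts1 (-5.95 ± 0.09), Mmp2 (-2.69 ± 0.16) and the serpins Serpinb2 (-3.53 ± 0.14) and Serpinb5 (-2.75 ± 0.11) fell, and Plau (0.30) and Mmp9 (0.30) were not called. Of integrin subunits 2 of 16 were higher and 2 lower (median 0.20). Itga2, a subunit of collagen receptors, read 10.12, 9.28 and 9.88 against 5.47, 6.08 and 5.72 (4.0 ± 0.21), Itga3 rose by 1.21, Itgb5 fell by 1.51, and Itgb1 (0.43) and Itgav (-0.37) were not called.

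Among markers of other cell types, the fibroblast (17 measured), endothelial (12), ciliated (11) and cartilage (10) lists had 0 members called in either direction by limma, with medians of 0.05, -0.04, -0.08 and 0.11; at an unadjusted p under 0.05 the numbers were 6, 2, 2 and 3. Col1a1 read 6.35 in the tumour and 6.10 in the wild-type line, Pecam1 5.03 and 5.23, and Foxj1 6.57 and 6.45. Smooth muscle markers had 3 of 11 lower and 0 higher (median -0.10), Acta2 (-3.01), Notch3 and Smtn (-1.25), while Myh11 (0.12) was not called. The Acta2 call was lost without probe sets of shared specificity (-0.11). The probe set then read had means of 4.10 in the tumour and 4.20 in the wild-type line, both under the floor. Leukocyte markers had 2 of 17 higher and 1 lower (median 0.06), beside 8.09% higher and 8.46% lower of all genes. The pan-leukocyte gene Ptprc read 4.51, 4.41 and 4.54 and 4.22, 4.44 and 4.77, under the floor on all 6 arrays, although Cd14 (3.48 ± 0.12) and Fcgr3 (2.74 ± 0.13) rose and Cd68 fell by 1.11. Neuroendocrine markers had 1 of 9 lower and 0 higher (median -0.07), Ncam1 (-1.34), a call lost with probe sets averaged (-0.31), with Chga at -0.09, and mesothelial markers 1 of 7 higher and 0 lower (median 0.08), Msln (1.60), with Wt1 at 0.14.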

How the data were processed

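Total RNA of 3 cell lines was labelled as biotinylated cRNA and hybridised to Affymetrix MG-430 2.0 arrays, per the labels' protocols. The deposited values are log2 signals, 1 per probe set and array; how the authors corrected, summarised and normalized them was not given in the sources used here. Arrays give no counts, so their number limits the precision.

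Of 45101 probe sets 64 were controls. In R 4.3.3, limma 3.58.1 (lmFit and eBayes, with statmod 1.5.0) was fitted to the other 45037 on all 9 arrays, which left 6 residual degrees of freedom, and p-values were adjusted by Benjamini-Hochberg over them. Each gene was read from its brightest probe set with exactly 1 symbol in the platform's annotation, which gave 18193 genes; 932 probe sets with several symbols and 9160 with none went into the probe set counts only. The fitting code was tested on simulated data. Promoter sequences are RefSeq's on GRCm38.p6 and were matched by gene ID.

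The genes named are the Gprc5 and sex-linked genes, the 20 widest rises and 20 widest falls among called genes with no overlap between arrays, the key genes of 50 gene lists, and up to 6 called members of each list with the largest change. Further list members were named by role or were chosen after their values were seen. The comparison and its lists, with 911 measured memberships of 869 genes, were chosen with earlier results of these data known. Counts over a list are therefore a description, and no list was tested as a set. Each list's counts stand beside the shares over all genes, 8.09% higher and 8.46% lower.

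Alternatives were quantile normalization, median centring, other folds, a replicate block, leaving out each array or the dimmest 40% of probe sets, and other ways to read a gene.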

Additional observations from a re-analysis of the deposited data

Results flagged for a closer look

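Of the array's own control probe sets, which stand outside the comparison, 5 gave a signal in the tumour line above that of the wild-type line by at least 2-fold and without overlap. The 3 for the transferrin receptor, which brings iron into cells, differed by 3.58 (3' end, 8.98 ± 0.54 SD against 5.40 ± 0.19, n = 3 arrays each), 3.47 (middle) and 3.08 (5' end) log2. The gene's ordinary probe set, looked up after these values were seen, read 12.40, 12.47 and 12.55 on the tumour arrays and 9.01, 9.03 and 8.93 on the wild-type arrays (3.48 ± 0.08, limma adjusted p = 2.14e-11). For the glycolytic enzyme Gapdh, the 5' probe set differed by 1.06 (13.63 ± 0.26 against 12.57 ± 0.61) and the middle one by 1.03 (13.79 ± 0.06 against 12.76 ± 0.42). The 3' Gapdh probe set differed by 0.715, under 2-fold; the 3' minus 5' signal of Gapdh was 0.47 ± 0.27 on the tumour and 0.81 ± 0.44 on the wild-type arrays, and the part of RNA integrity in these differences was not tested. The exact two-sided permutation p was 0.1 for each of the 5, the smallest that 3 against 3 arrays allow.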

How the results depend on the processing

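The fold threshold set the counts. Without one, 17021 probe sets and 8199 genes were called; at 1.5-fold 10892 and 5371; at 4-fold 1774 and 978. Limma's treat against 1.5-fold called 3379 genes. The fit on 6 arrays, the replicate block, the trended and robust priors, the fit over 1 probe set per gene and, chosen after seeing the data, leaving out each knockout array gave 3012 genes each. These settings leave the fold as it is, so their equal counts say nothing of stability. With the block, 3012 of the 3012 calls were shared. Quantile normalization gave 3009 genes and median centring 3006. Leaving out 1 tumour or wild-type array gave 5790 to 6093 probe sets, 2992 to 3082 genes, a Gprc5a difference of -1.66 to -1.45 and 1 to 2 cholesterol and fatty acid genes lower. With the dimmest 40% of probe sets left out, 2 chemokines were higher and 0 sex-linked genes lower, since fewer members were tested. With probe sets averaged, 2530 genes were called; 5 gut and oncofetal genes were higher, 2 imprinted genes lower, 3 ATF4 and serine genes higher and 0 neuroendocrine genes lower, while Hoxa5 was -1.06 and Mycn 1.05 (brightest probe set -0.04). With _x_at and _s_at names dropped, Casp14 was -1.20 (brightest probe set 0.08), Dlk1 0.24 and Hoxa5 -2.13. The cause was not tested. Deviations of arrays with the same replicate number had r = 0.28, -0.15 and 0.05 for tumour and wild type, and not every array correlated best with its own number, so the numbers were not taken as pairs. Low signal limits the folds of 155 lower and 89 higher genes to a bound.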

Other observations

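Of the genes on either side of Cdkn2a and Cdkn2b, Mtap rose and Dmrta1 gave no signal above the floor in either line. Mtap, which salvages methionine and lies beside Cdkn2a, was looked up after the falls of that pair had been seen. It read 11.56, 11.56 and 11.71 on the tumour arrays and 10.20, 10.48 and 10.29 on the wild-type arrays (1.28 ± 0.10, limma adjusted p = 6.33e-07), and 3 further Mtap probe sets also rose. On the other side, Dmrta1 had a mean of 3.54 in the tumour and 3.60 in the wild-type line, under the floor of 5.15 in both lines. Cdkn2b had a tumour mean of 5.85 and Cdkn2a one of 5.20, both above the floor but under 5.96, the highest bacterial control value.

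Genes known from other tissues were high in the tumour line, all chosen after their values were seen. The pituitary hormone gene Prl read 10.58, 10.77 and 10.56 on the tumour arrays, 5.50, 5.71 and 5.66 on the wild-type arrays and 5.65, 5.48 and 5.43 on the knockout arrays (5.01 ± 0.10, limma adjusted p = 5.37e-12). The basophil protease gene Mcpt8 had means of 10.17 ± 0.16 (SD, n = 3 arrays), 5.88 ± 0.10 and 6.05 in the same order (4.29 ± 0.10). Each rests on 1 probe set, and the leukocyte marker Ptprc lay under the floor on all of these arrays.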
